A study of Homo sapiens with 12 samples.

Results

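MYC, MYCN and MYCL, their shared partner MAX and the 6 other MAX-binding proteins MXD1, MXD3, MXD4, MXI1, MNT and MGA form a small network of transcription factors. These 10 genes, out of 58735 in the count table, were followed over the 4 treatments of U2OS cells, a human osteosarcoma cell line. They were picked by name, because MYC was higher and MYCN lower in cells given both compounds than in cells given the solvent. The values of that comparison therefore chose the set, and they are given as a description with no test.

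RNA-seq was run on 12 libraries, 3 for each treatment of 24 h. The combination group had 10 µM TH10785 together with 10 µM PNKP1i. The TH10785 and PNKP1i groups each had 10 µM of 1 compound, and the DMSO group had the solvent alone. TH10785 is a small molecule that activates OGG1, the enzyme that cuts oxidised guanine out of DNA. PNKP1i is the other compound, called here by its name in the labels. All groups came from the same cell line with no genetic change stated, and the labels do not say that replicates were separate cultures, so that the tests rest on differences among these libraries, and part of that spread may be technical.

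MYC family proteins bind DNA as pairs with MAX, mostly at the E-box CACGTG, where they recruit acetyltransferase and elongation factors and raise transcription of genes for growth, ribosome assembly and metabolism. The MXD proteins and MNT pair with the same MAX and bring SIN3 and histone deacetylases to the same kind of site, while MGA brings MAX into a Polycomb complex. MYC is the family member that most dividing cells use, MYCN is best known from the developing nervous system and neuroblastoma, and MYCL from small cell lung cancer. In bulk RNA, fewer cells expressing a gene and less RNA per cell cannot be told apart.

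Library totals ran from 16225339 to 21546369 counts, and levels are given as CPM, counts scaled to a common library total. The replicate 3 library of TH10785 stood apart from its group on the first principal component (-54.5, against -2.53 and -10.1), and the replicate 1 library of the combination was the most extreme of its group (88.6, against 47.7 and 66.9). Genes with less than 40% GC had a median log2 difference from the DMSO mean of 0.654, 0.460 and 0.801 in the combination libraries, and of 0.207, 0.0997 and -0.625 in the TH10785 libraries. Values with offsets for GC content and transcript length are therefore given beside those combination and interaction results of the network genes and gene lists whose call or direction they changed or whose size they moved by over 1.5 times. Levels, shares of summed levels and list medians carry no offsets unless that is stated. Of the mesenchymal markers COL1A1, SPARC, VIM, RUNX2, ALPL, PRRX1 and TWIST1, 6 were detected and TWIST1 was at 0, and the 7 summed to 2089 to 2579 CPM in the combination and 4073 to 4856 CPM in DMSO. The leukocyte list summed to at most 0.872 CPM in the combination and 1.10 CPM in DMSO, and the epithelial list to 19.6 to 28.6 CPM in the combination and 49.4 to 56.0 CPM in DMSO. The neuroblast list, relevant to MYCN, summed to 10.2 to 11.7 CPM in the combination and 11.3 to 13.6 CPM in DMSO. Genes of the mesenchymal and of the epithelial list differed from DMSO in both directions in the combination, which the sums do not show. The part of these marker levels in the results was not tested.

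MYC, the broadly used family member (chr8:127735434-127741434, plus strand, GRCh38), was at 396.8, 212.8 and 220.7 CPM in the combination libraries. It was at 120.1, 132.8 and 146.9 CPM under TH10785, at 148.2, 108.3 and 139.4 CPM under PNKP1i and at 111.3, 131.1 and 140.5 CPM in DMSO. Every combination library was above every other library, and the 9 others overlapped freely. The combination averaged 276.8 ± 104.1 CPM and DMSO 127.7 ± 14.9 CPM (SD, n = 3 each), a log2 fold change of 1.12 ± 0.20 (SE). Much of the height and of the spread came from replicate 1 of the combination, and without it the log2 fold change was 0.77.

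MYCN (chr2:15940564-15947007, plus strand) moved the other way and was close to the detection limit with both compounds. It was at 0.145, 0.145 and 0.543 CPM in the combination libraries, which rest on 3, 3 and 12 reads. It was at 2.02, 2.28 and 1.22 CPM under TH10785, at 2.09, 3.07 and 2.82 CPM under PNKP1i and at 3.65, 2.20 and 3.43 CPM in DMSO. No combination library reached the lowest library of any other group. Over the group, 18 reads in the combination stood against 161 in DMSO, a scaled ratio of 0.0913 with a 95% interval of 0.0527 to 0.149 that covers counting error only. The fitted log2 fold change was -3.42 ± 0.43 (SE), and -4.34 without replicate 3 of the combination. MYCN passed the filter on low counts through the other groups, since 1 of the 3 combination libraries had 10 reads or more. Its antisense gene MYCNOS, which overlaps 3.77% of the MYCN exons, had 0, 2 and 0 reads in the combination and 4, 11 and 5 in DMSO, and the sources used here do not say whether counting used strand.

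MYCL (chr1:39895426-39902256, minus strand) had the tightest values of the family. It was at 6.10, 7.17 and 6.56 CPM in the combination, at 13.4, 14.3 and 15.6 CPM under TH10785, at 17.3, 14.6 and 15.6 CPM under PNKP1i and at 18.5, 19.7 and 18.7 CPM in DMSO. All combination libraries lay below all others, and the libraries of both single agents lay below those of DMSO. The log2 fold change of the combination against DMSO was -1.52 ± 0.15 (SE).

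**Figure D1:**
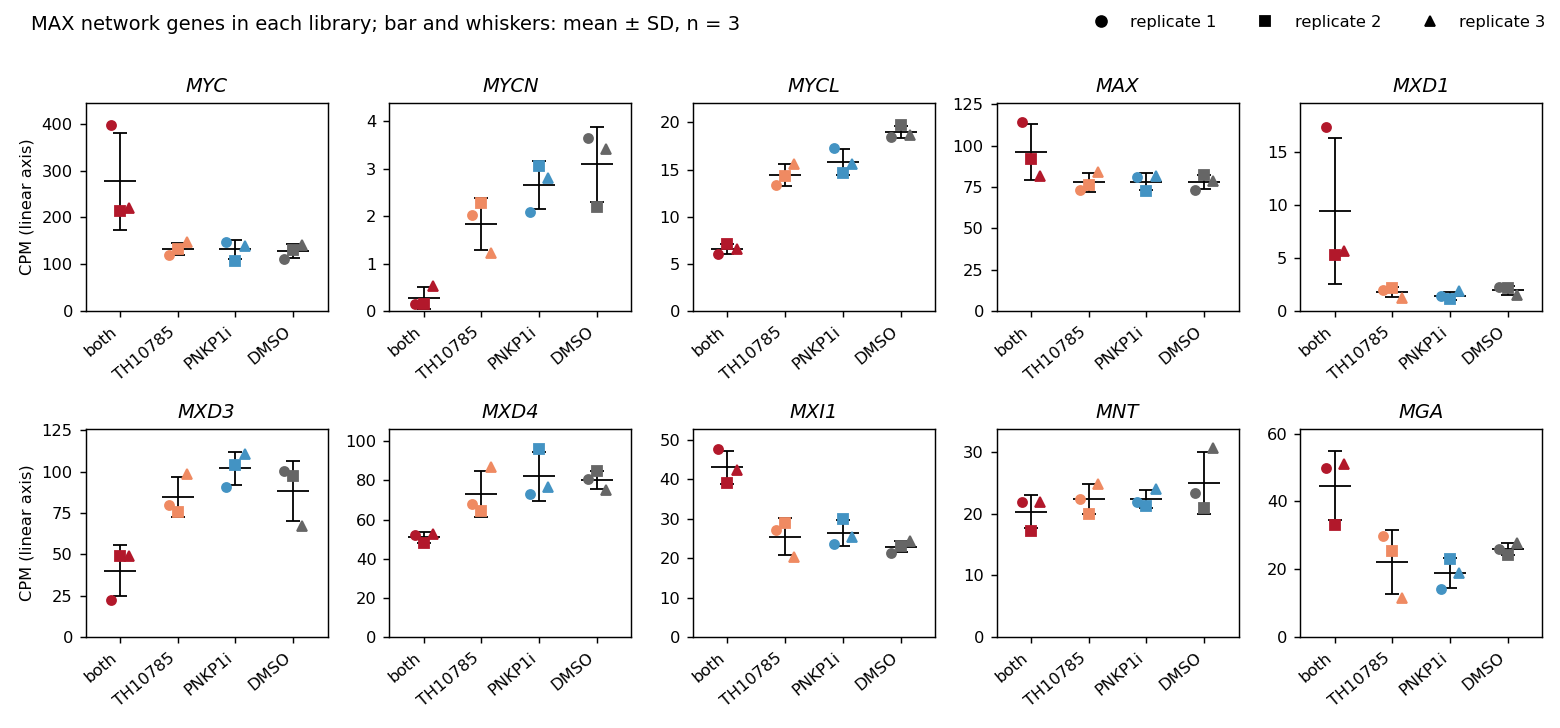
CPM of each of the 10 MAX network genes in the 12 libraries, by treatment (both is the combination of TH10785 and PNKP1i), with the group mean and SD over 3 libraries on linear axes that start at 0. MYC, MXD1, MXI1 and MGA are higher, and MYCN, MYCL, MXD3 and MXD4 lower, in every combination library than in every DMSO library.

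MAX, the common dimer partner (chr14:65006174-65102695, minus strand), showed a small difference. It was at 114.3, 92.1 and 81.7 CPM in the combination, at 73.1, 76.2 and 84.1 CPM under TH10785, at 81.0, 72.3 and 81.5 CPM under PNKP1i and at 73.5, 82.2 and 78.6 CPM in DMSO. The combination overlapped DMSO through its replicate 3, and the log2 fold change was 0.30 ± 0.13 (SE). Without replicate 1 of the combination it was 0.16.

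The MXD genes, which encode antagonists of MYC that recruit SIN3, split into a pair that was higher and a pair that was lower with both compounds. MXD1 (chr2:69897688-69942945, plus strand), classically induced as cells leave the cycle and differentiate, was at 17.3, 5.33 and 5.65 CPM in the combination, at 1.96, 2.23 and 1.28 CPM under TH10785, at 1.41, 1.13 and 1.88 CPM under PNKP1i and at 2.27, 2.20 and 1.5 CPM in DMSO. Its combination libraries were above all others, and its log2 fold change against DMSO was 2.25 ± 0.40 (SE). As with MYC, replicate 1 of the combination was the highest library, and without it the log2 fold change was 1.48. MXI1, also called MXD2 (chr10:110207605-110287365, plus strand), was at 47.5, 39.2 and 42.4 CPM in the combination, at 27.0, 29.03 and 20.2 CPM under TH10785, at 23.6, 29.9 and 25.4 CPM under PNKP1i and at 21.4, 23.0 and 24.3 CPM in DMSO. The 3 combination libraries were above all others, at a log2 fold change of 0.91 ± 0.15 (SE) against DMSO.

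MXD3 (chr5:177301461-177312757, minus strand), the MXD protein linked to S phase and proliferating cells, was at 22.4, 49.0 and 49.2 CPM in the combination, at 80.1, 75.7 and 98.5 CPM under TH10785, at 90.8, 104.1 and 110.9 CPM under PNKP1i and at 100.4, 97.2 and 67.3 CPM in DMSO. The combination libraries were all below the others, and replicate 1, the highest for MYC and MXD1, was the lowest for MXD3. The log2 fold change against DMSO was -1.13 ± 0.23 (SE). MXD3 shares 18% of its exon bases with RAB24 on the same strand and 22.5% with PRELID1 on the opposite strand, so reads there may not all be counted for MXD3. Against DMSO in the combination, RAB24, a small GTPase, rose by a log2 fold change of 0.64 ± 0.17 (SE, edgeR's quasi-likelihood test, adjusted p = 0.00778) and PRELID1, a mitochondrial lipid transfer protein, was at -0.12 ± 0.17 (adjusted p = 0.599).

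MXD4 (chr4:2247432-2262294, minus strand), a further SIN3-binding MXD protein, was at 52.4, 47.8 and 52.6 CPM in the combination, at 68.0, 64.4 and 86.7 CPM under TH10785, at 73.2, 96.1 and 76.7 CPM under PNKP1i and at 80.6, 84.8 and 75.2 CPM in DMSO. The combination libraries were again all lowest, with a log2 fold change of -0.66 ± 0.13 (SE) against DMSO. With offsets for GC content and length it was -0.34.

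MNT (chr17:2384060-2401118, minus strand), the widely expressed antagonist that dividing and resting cells share, was at 21.8, 17.3 and 21.9 CPM in the combination, at 22.4, 19.9 and 24.9 CPM under TH10785, at 21.8, 21.3 and 24.0 CPM under PNKP1i and at 23.3, 20.9 and 30.6 CPM in DMSO. All 4 groups overlapped. The log2 fold change of the combination against DMSO was -0.30 ± 0.16 (SE), and 0.12 with offsets for GC content and length, so no direction is given for MNT. MGA (chr15:41621224-41773081, plus strand), a very large protein that carries a T-box besides its MAX-binding domain, was at 49.99, 33.0 and 50.9 CPM in the combination, at 29.8, 25.3 and 11.5 CPM under TH10785, at 14.3, 23.1 and 19.0 CPM under PNKP1i and at 26.1, 24.3 and 27.9 CPM in DMSO. The combination libraries were the highest, and all PNKP1i libraries lay below all DMSO libraries. Its log2 fold change in the combination against DMSO was 0.78 ± 0.26 (SE), and 0.41 with offsets for GC content and length.

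In all, 8 of the 10 genes had combination libraries that did not overlap the DMSO libraries, 4 higher and 4 lower. Over all tested genes 53.6% had groups that did not overlap, and because the set was chosen on this comparison nothing is read from the count. The median log2 fold change was 0.00074 over the 10 genes and 0.04 over all 17290 tested genes.

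**Figure D2:**
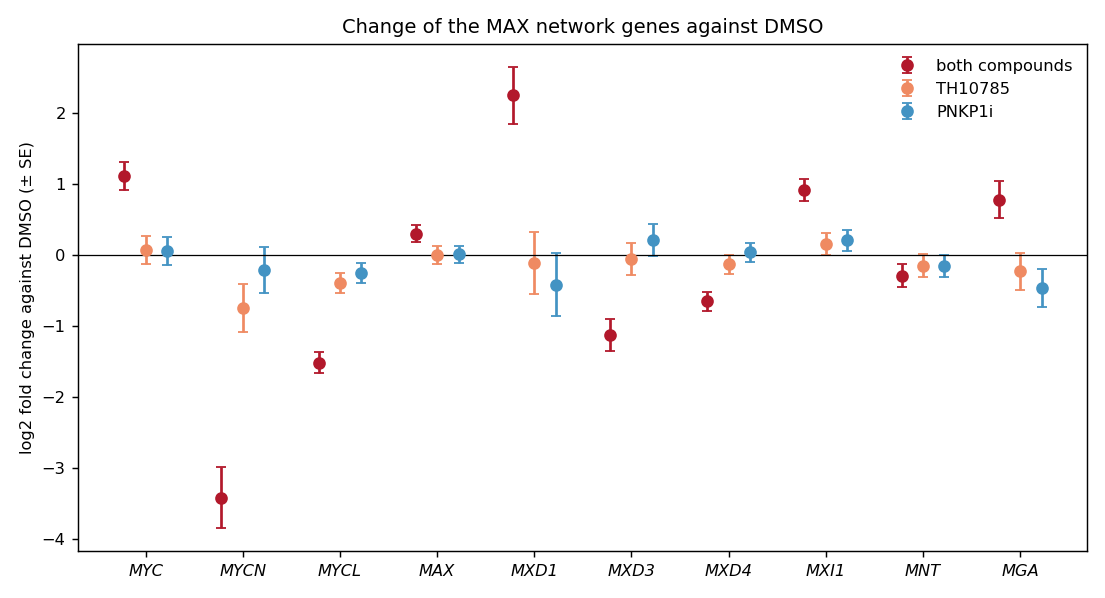
Log2 fold change against DMSO (vertical axis, with SE from the fit over 12 libraries) of each network gene for both compounds, TH10785 and PNKP1i. The single agents lie between -0.75 and 0.21, while both compounds together reach 2.25 for MXD1 and -3.42 for MYCN.

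The promoter windows of the antagonists were searched because MYC and MXD proteins compete for the E-box, and the matches are shown for the members that hold one. RefSeq windows from 250 bases before to 50 bases after each annotated start (GRCh38.p14) were searched for 9 of the 10 genes, 14 windows in all, and that of MYC is not used here. CACGTG, which reads the same on both strands, was found for 2 of the 9 genes, MXD4 and MNT, in 1 window each. Counted by window that is 2 of 14, beside 2548 of all 35116 windows (7.26%). In the lines here, written 5′ to 3′ on the strand of the gene, capitals mark CACGTG, which begins 238 bases before the start of MXD4 (chr4:2262318-2262359, minus strand) and 193 bases before the start of MNT (chr17:2401224-2401277, minus strand).
MXD4: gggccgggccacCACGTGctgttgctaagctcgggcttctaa
MNT: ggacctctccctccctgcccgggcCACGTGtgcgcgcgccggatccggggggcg
Of these 2, MXD4 was lower in every combination library and MNT overlapped DMSO. A match is a description of the letters and not of binding, and the other 7 genes have no such letters in these windows only.

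Neither compound alone moved a gene of the network past the test. TH10785 against DMSO and PNKP1i against DMSO share the DMSO libraries with the comparison that chose the set, while TH10785 against PNKP1i shares none. By edgeR's quasi-likelihood test with Benjamini-Hochberg adjustment, 0 of the 10 genes were called in each of the 3 comparisons, against 0.561%, 0.197% and 0.902% of all tested genes, in that order. DESeq2 also called 0 in each. At an unadjusted p under 0.05 there were 2 genes for TH10785 against DMSO, and 0 for PNKP1i against DMSO and for TH10785 against PNKP1i.

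The 2 genes were the family members that were lower in the combination. MYCL differed by a log2 fold change of -0.40 ± 0.14 (SE, adjusted p = 0.227) with TH10785 and by -0.26 ± 0.14 (adjusted p = 0.494) with PNKP1i. Its groups did not overlap DMSO in either case, which held for 1 of the 10 genes with TH10785 (19.7% of all genes) and for 2 with PNKP1i (25.9% of all genes), the other being MGA. MYCN was at -0.75 ± 0.34 (SE, adjusted p = 0.327) with TH10785 and at -0.22 ± 0.33 (adjusted p = 0.818) with PNKP1i, and its libraries overlapped DMSO in both. Read counts gave MYCN ratios to DMSO of 0.593 (95% interval 0.457 to 0.767, counting error only) with TH10785 and 0.858 (0.683 to 1.078) with PNKP1i.

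MYC itself was close to DMSO under either agent, with a log2 fold change of 0.06 ± 0.20 (SE, adjusted p = 0.918) for TH10785 and 0.05 ± 0.20 (adjusted p = 0.937) for PNKP1i. MAX was at -0.0054 ± 0.13 (adjusted p = 0.989) for TH10785 and at 0.0039 ± 0.13 (adjusted p = 0.992) for PNKP1i. Both genes changed sign in some alternative fits. The largest difference between the single agents was that of MYCN, at -0.53 ± 0.34 (SE, adjusted p = 0.761) for TH10785 against PNKP1i, and in that comparison 0 of the 10 genes had groups that did not overlap (14.5% of all genes).

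Set against either single agent, the combination differed for most of the network. Leaving out MYC and MYCN, which are not tested here because the combination libraries chose them, 6 of the 8 other genes were called against TH10785 (42.3% of all genes) and 6 of 8 against PNKP1i (46% of all genes). In each comparison 3 rose (22.7% of all genes against TH10785 and 24.4% against PNKP1i) and 3 fell (19.7% and 21.5%). MXD1, MXI1 and MGA rose and MYCL, MXD3 and MXD4 fell in both comparisons. The 2 genes not called were MAX and MNT.

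Among those that rose, MXD1 had a log2 fold change of 2.37 ± 0.40 (SE, edgeR adjusted p = 0.000405) against TH10785 and 2.67 ± 0.41 (adjusted p = 0.000186) against PNKP1i. MXI1 rose by 0.76 ± 0.15 (adjusted p = 0.00109) against TH10785 and 0.71 ± 0.15 (adjusted p = 0.00134) against PNKP1i. MGA rose by 1.01 ± 0.26 (adjusted p = 0.00591) against TH10785 and 1.25 ± 0.26 (adjusted p = 0.00137) against PNKP1i. All 3 genes had combination libraries above every single-agent library. Offsets for GC content and length put MGA at 0.51 (adjusted p = 0.0166) against TH10785 and 0.66 (adjusted p = 0.00337) against PNKP1i, and MXI1 at 0.46 (adjusted p = 0.00397) and 0.38 (adjusted p = 0.0128), smaller but still called.

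Among those that fell, MYCL had a log2 fold change of -1.12 ± 0.15 (SE, edgeR adjusted p = 7.21e-05) against TH10785 and -1.26 ± 0.15 (adjusted p = 4.55e-05) against PNKP1i. MXD3 was at -1.076 ± 0.23 (adjusted p = 0.00172) against TH10785 and -1.34 ± 0.23 (adjusted p = 0.000345) against PNKP1i. MXD4 was at -0.52 ± 0.13 (adjusted p = 0.00559) against TH10785, and at -0.69 ± 0.13 (adjusted p = 0.000788) against PNKP1i. Under the offsets MXD4 was at -0.25 against TH10785, no longer called (adjusted p = 0.0933), and at -0.36 (adjusted p = 0.0167) against PNKP1i, and MXD3 was at -0.71 (adjusted p = 0.0258) against TH10785.

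MAX was at 0.30 ± 0.13 (SE, adjusted p = 0.0598) against TH10785 and 0.29 ± 0.12 (adjusted p = 0.0634) against PNKP1i. With offsets for GC content and length it was at 0.42 (adjusted p = 0.00735) and 0.45 (adjusted p = 0.00459), past the threshold in both. It was also past it without TH10785 replicate 3 (adjusted p = 0.0301 against TH10785 and 0.032 against PNKP1i) and without combination replicate 3 (0.0266 and 0.0247). Without combination replicate 1 it was at 0.16 (adjusted p = 0.299) against TH10785 and 0.15 (adjusted p = 0.305) against PNKP1i. MYC was at 1.05 ± 0.20 (SE) against TH10785 and 1.07 ± 0.20 against PNKP1i, and MYCN at -2.68 ± 0.44 and -3.21 ± 0.43, as descriptions. Groups that did not overlap were found for 8 of the 10 genes against TH10785 (52.2% of all genes) and for 9 against PNKP1i (58.2% of all genes).

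The interaction asks whether the combination differs from the sum of the single-agent changes on the log2 scale. Of the 8 genes other than MYC and MYCN, 5 were called (30.6% of all genes). MXD1 and MGA were above the sum (16.5% of all genes) and MYCL, MXD3 and MXD4 below it (14.1% of all genes). The values were 2.79 ± 0.60 (SE, edgeR adjusted p = 0.00641) for MXD1 and 1.48 ± 0.37 (adjusted p = 0.0101) for MGA. They were -0.86 ± 0.21 (adjusted p = 0.00868) for MYCL, -1.28 ± 0.32 (adjusted p = 0.00966) for MXD3 and -0.55 ± 0.19 (adjusted p = 0.0349) for MXD4. MXI1 missed the threshold at 0.56 ± 0.21 (adjusted p = 0.0549), as did MAX at 0.30 ± 0.18 (adjusted p = 0.206) and MNT at 0.02 ± 0.23 (adjusted p = 0.960). MYC was at 1.01 ± 0.28 (SE) and MYCN at -2.46 ± 0.56, as descriptions.

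Only some of these calls held in every alternative fit. MYCL, MXD1 and MGA were called in all 20 alternatives, MXD3 in 18 and MXD4 in 11. MXD3 missed the threshold without TH10785 replicate 3 (adjusted p = 0.0518). MXD4 missed it without any 1 of TH10785 replicate 3, combination replicates 2 and 3, PNKP1i replicate 2 and DMSO replicates 1 and 3 (adjusted p = 0.0535 to 0.0998). MXI1 passed it without TH10785 replicate 2, combination replicate 2 or PNKP1i replicate 2 (adjusted p = 0.0361 to 0.0471). With offsets for GC content and length the interaction was 0.75 (adjusted p = 0.025) for MGA, -0.82 (adjusted p = 0.0813) for MXD3 and -0.27 (adjusted p = 0.237) for MXD4. It was 0.18 (adjusted p = 0.436) for MXI1, 0.46 (adjusted p = 0.0474) for MAX and 0.33 (adjusted p = 0.241) for MNT.

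Direction and base composition moved together for several members. The 3 genes with the least GC in their longest transcript, MGA (42%), MXD1 (42.7%) and MXI1 (43.8%), were all higher in the combination than in DMSO. Of the 4 genes richest in GC, MXD4 (57.6%), MXD3 (61.3%) and MYCN (56.9%) were lower and MNT (61.4%) overlapped. Offsets for GC content and length moved MXD1 to a log2 fold change of 1.95, MXI1 to 0.65 and MGA to 0.41, and MXD3 to -0.82, MXD4 to -0.34 and MYCN to -3.21. They moved MYC, at 53.9% GC, to 1.25 and MYCL, at 55.1% GC, to -1.31. The part of base composition in the results was otherwise not tested.

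**Figure D3:**
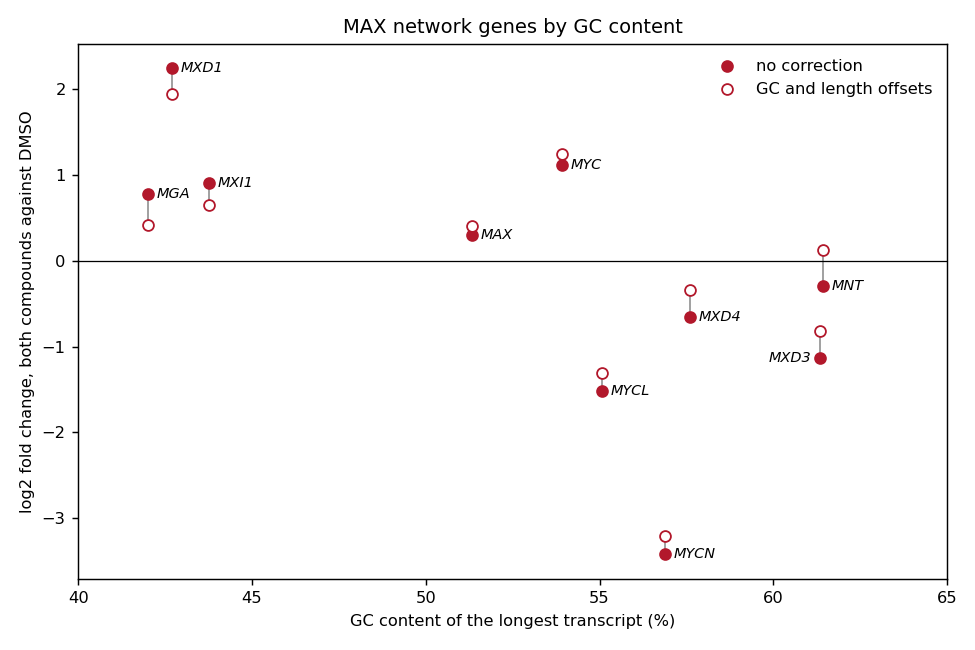
Log2 fold change of both compounds against DMSO (vertical axis) against the GC content of the longest transcript (horizontal axis, %) for the 10 genes, without correction (filled) and with offsets for GC content and length (open). MNT crosses 0, from -0.30 to 0.12, and the other 9 genes keep their sign.

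Levels of different genes were compared per kilobase of exon. MYC was the highest gene of the network in every group, at 92.2 ± 34.7 CPM per kb in the combination, 44.4 ± 4.5 under TH10785, 44.0 ± 7.0 under PNKP1i and 42.5 ± 5.0 in DMSO (SD, n = 3 each). In the combination MAX followed at 21.7 ± 3.8 CPM per kb, then MXI1 at 9.34 ± 0.91, MXD3 at 7.80 ± 2.99 and MXD4 at 7.21 ± 0.38, which all lay within the spread of MXD3. Below them were MGA at 2.53 ± 0.57, MNT at 2.33 ± 0.30, MXD1 at 1.49 ± 1.076 and MYCL at 1.31 ± 0.11 CPM per kb, neighbours that lay within each other's spread, and MYCN was last at 0.107 ± 0.088.

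In DMSO the order was MYC, MAX at 17.6 ± 1.0 CPM per kb and MXD3 at 17.1 ± 3.5, which did not differ beyond their spread, then MXD4 at 11.4 ± 0.7 and MXI1 at 4.97 ± 0.31. MYCL at 3.75 ± 0.13 and MNT at 2.86 ± 0.58 CPM per kb came next, then MGA at 1.48 ± 0.10 and MYCN at 1.19 ± 0.30, again within their spread, and MXD1 was last at 0.313 ± 0.067. TH10785 kept the DMSO order, and PNKP1i differed from it in the places of MXD3 (19.8 ± 2.0) and MAX (17.7 ± 1.2), which lay within their spread. MXI1 thus held the third place in the combination and the fifth in DMSO, and MXD1 the eighth in the combination and the last in DMSO. These levels carry no offsets for GC content and length. In the combination against DMSO the offsets moved MXI1 from a log2 fold change of 0.91 to 0.65. They moved MXD3 from -1.13 to -0.82 and MXD4 from -0.66 to -0.34. The order of the genes with the offsets was not worked out, so the place of MXI1 may depend on them.

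Summed per kilobase over the 10 genes, MYC made up 69.8%, 57.8% and 58.4% of the network's RNA in the combination libraries, 41.9%, 44.6% and 44.1% under TH10785, 45.5%, 35.8% and 41.9% under PNKP1i and 37.6%, 40.9% and 45.1% in DMSO. The MXD genes together made up 13.1%, 20.9% and 21.5% in the combination and 36.4%, 33.9% and 28.1% in DMSO. Their summed level was 24.8, 25.6 and 27.1 CPM per kb in the combination and 35.9, 36.2 and 29.2 in DMSO. These shares restate the members' levels, so they carry no test.

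Within the MXD genes the make-up differed more than the sum, in levels that carry no offsets for GC content and length. Those offsets made the changes of MXD1, MXI1, MXD3 and MXD4 against DMSO smaller, and shares with them were not worked out. MXI1 made up 41.6%, 33.2% and 34.0% of their summed level in the combination and 13.0%, 13.8% and 18.02% in DMSO. MXD3 made up 17.5%, 37.1% and 35.2% in the combination and 54.3%, 52.1% and 44.7% in DMSO. MXD1 made up 10.99%, 3.28% and 3.29% in the combination and at most 0.997% in DMSO.

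**Figure D4:**
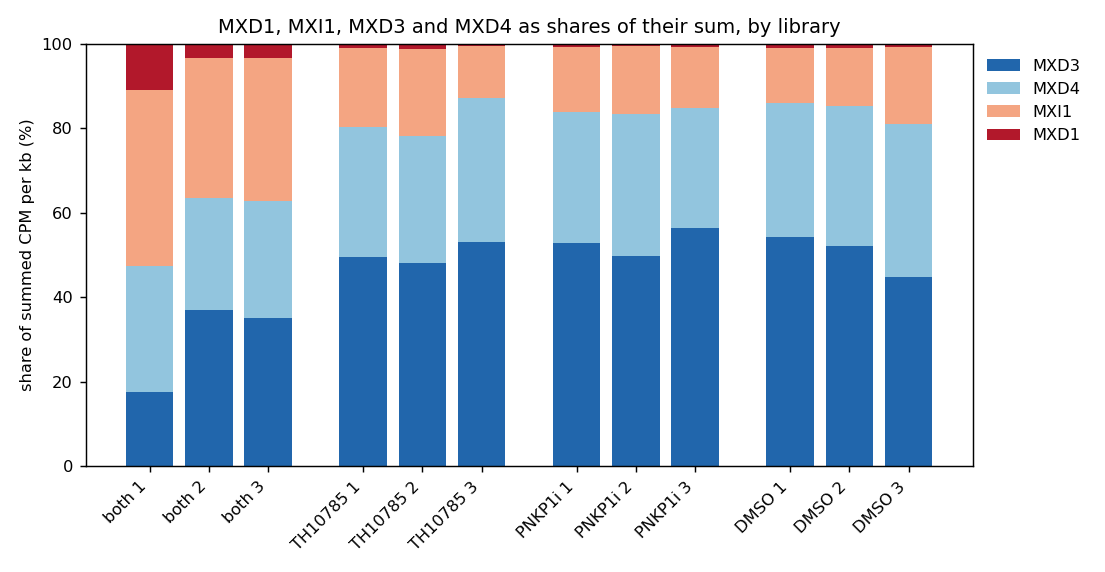
Share of MXD3, MXD4, MXI1 and MXD1 in their summed CPM per kb (vertical axis, %) for each of the 12 libraries, 3 per treatment (both is the combination). No offsets for GC content and length were used. MXI1 holds 33.2% to 41.6% of the bar in the combination libraries, against 13.0% to 18.02% in DMSO.

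The lists of genes around the network were chosen with earlier results of these data known, and their counts are read beside those of all tested genes, of which 21.3% rose and 19.7% fell in the combination against DMSO at an adjusted p under 0.05 (41% in all). Around MYC, the 3 tested long non-coding RNAs of the locus were all called higher. PVT1, which lies beside MYC, was at 48.0, 41.5 and 36.1 CPM in the combination and 27.4, 26.4 and 23.6 CPM in DMSO, a log2 fold change of 0.70 ± 0.14 (SE, edgeR adjusted p = 0.0009). CASC8 rose by 0.88 ± 0.19 (adjusted p = 0.0018) and PCAT1, at 1.35 ± 0.59 CPM in the combination and 0.395 ± 0.201 CPM in DMSO, by 1.78 ± 0.51 (adjusted p = 0.0104). CASC8 differed from MYC in that TH10785 alone also raised it, to 9.26, 7.30 and 10.1 CPM, against 4.13, 4.76 and 5.14 CPM in DMSO, a log2 fold change of 0.92 ± 0.19 (adjusted p = 0.0362). That call was lost in 8 of 21 alternatives, among them those without TH10785 replicate 1 or 3, PNKP1i replicate 2 or any 1 DMSO library. CASC11 and POU5F1B had at most 13 reads in any group and were not tested.

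Of the neighbours of MYCN, DDX1, an RNA helicase gene that is often co-amplified with MYCN in tumours, was higher in the combination while MYCN was lower. It was at 107.1, 113.0 and 119.2 CPM in the combination and 73.4, 70.6 and 76.5 CPM in DMSO, a log2 fold change of 0.62 ± 0.17 (SE, edgeR adjusted p = 0.0077), and of 0.36 (adjusted p = 0.0229) with offsets for GC content and length. NBAS was at 0.09 ± 0.14 (adjusted p = 0.642), and at 0.05 with the offsets. MYCNOS, MYCNUT and GACAT3 were too low to test.

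The MLX branch is the sister network, in which MLX pairs with the glucose sensors MLXIP and MLXIPL and also with MXD1, MXD4 and MNT. Its best known targets had the largest rises of the tested genes in the lists around the network. TXNIP, an inhibitor of glucose uptake and of thioredoxin, was at 55.5, 24.8 and 23.0 CPM in the combination, at 2.64, 1.97 and 2.50 CPM under TH10785, at 6.09, 10.98 and 5.23 CPM under PNKP1i and at 4.19, 5.01 and 3.21 CPM in DMSO. Every combination library was above all others, the PNKP1i libraries were above DMSO and the TH10785 libraries below it. TXNIP rose by a log2 fold change of 3.06 ± 0.34 (SE, edgeR adjusted p = 9.23e-06) in the combination against DMSO, and was at 0.85 ± 0.34 (adjusted p = 0.387) with PNKP1i and -0.80 ± 0.37 (adjusted p = 0.341) with TH10785. TH10785 and PNKP1i differed from each other for TXNIP, by -1.65 ± 0.36 (adjusted p = 0.0342), a call lost in 8 of 21 alternatives, among them that with the offsets and those without any 1 TH10785 library, PNKP1i replicate 1 or 2 or DMSO replicate 1 or 3. The interaction was 3.02 ± 0.49 (adjusted p = 0.0035).

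ARRDC4, the related arrestin that also lowers glucose uptake, was at 14.3, 4.94 and 5.52 CPM in the combination and 0.897, 0.977 and 2.19 CPM in DMSO, a log2 fold change of 2.58 ± 0.44 (SE, edgeR adjusted p = 0.000324). The sensor MLXIP fell by 0.43 ± 0.14 on the log2 scale (adjusted p = 0.0196), a call lost with offsets for GC content and length (-0.07, adjusted p = 0.659) and without DMSO replicate 2 or 3 or combination replicate 2 or 3, and MLX was at -0.04 ± 0.13 (adjusted p = 0.823), or 0.05 with the offsets. MLXIPL had 4 to 7 reads per group and was not tested.

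The promoter sequences of TXNIP and ARRDC4 are shown because MLX complexes act through paired E-box-like elements. CACGAG in 2 copies with 5 bases between them, searched on both strands and chosen from knowledge of the TXNIP promoter, occurred in 2 of 35116 windows (0.0057%), and it begins 88 bases before the start of TXNIP (chr1:145996627-145996691, minus strand). CACGTG begins 210 bases before the start of ARRDC4 (chr15:97960469-97960522, plus strand). Capitals mark these letters in the RefSeq sequences (GRCh38.p14), written 5′ to 3′ on the strand of the gene.
TXNIP: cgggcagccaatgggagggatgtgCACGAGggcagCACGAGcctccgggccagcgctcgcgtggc
ARRDC4: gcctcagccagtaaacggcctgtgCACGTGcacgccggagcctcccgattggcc
CACGTG was found for 2 of the 5 genes of the branch, MLX and ARRDC4. Of these, MLX was not called in the combination against DMSO. It was called lower against PNKP1i (-0.32, edgeR adjusted p = 0.0485) and in the interaction (-0.54, adjusted p = 0.0332), and in neither with offsets for GC content and length (adjusted p = 0.288 and 0.128).

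Among the cofactors of MYC, falls outnumbered rises against DMSO, though not with offsets for GC content and length. Of 17 tested coactivators and partners, 2 rose and 10 fell in the combination against DMSO, with a median log2 fold change of -0.35, against 0.04 over all genes. HCFC1, a chromatin scaffold that binds MYC, fell by 0.69 ± 0.11 on the log2 scale (SE, edgeR adjusted p = 0.000255), SMARCB1, a SWI/SNF subunit, by 0.66 ± 0.13 (adjusted p = 0.00103), and WDR5, which anchors MYC on chromatin, by 0.43 ± 0.11 (adjusted p = 0.00656). TRRAP, the acetyltransferase scaffold, was at -0.43 ± 0.11 (adjusted p = 0.00736). CCNT1, the cyclin of the elongation kinase CDK9, rose by 0.61 ± 0.20 (adjusted p = 0.023) and MYCBP by 0.49 ± 0.18 (adjusted p = 0.0364). When offsets for GC content and length were used, HCFC1 (-0.24, adjusted p = 0.042) and SMARCB1 (-0.28, adjusted p = 0.035) were the 2 falls called, and WDR5 (-0.21, adjusted p = 0.0595) and TRRAP (-0.22, adjusted p = 0.0654) missed the threshold. Both rises were lost as well, with CCNT1 at 0.18 (adjusted p = 0.262) and MYCBP at 0.23 (adjusted p = 0.233), while KAT2A (0.33, adjusted p = 0.00549) and TFAP4 (0.44, adjusted p = 0.0083) were called higher. The middle value of the 17 was then -0.08, that of BPTF. Of the falls, 4 were called without DMSO replicate 2 and 5 without combination replicate 3. Without any 1 DMSO or combination library at most 1 rise was called.

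The SIN3 and histone deacetylase genes that serve the MXD proteins and MNT were divided, with 3 of 14 higher and 3 lower and a median of -0.02. The SIN3 scaffold partners ARID4B (1.14 ± 0.29, SE, edgeR adjusted p = 0.00558), ARID4A (1.07 ± 0.33, adjusted p = 0.0175) and the deacetylase HDAC2 (0.57 ± 0.20, adjusted p = 0.0273) rose. The deacetylase HDAC1 (-0.41 ± 0.11, adjusted p = 0.00887), the scaffold SIN3B (-0.33 ± 0.10, adjusted p = 0.0189) and the histone-binding RBBP4 (-0.32 ± 0.11, adjusted p = 0.0316) fell. Under the offsets ARID4B (0.59, adjusted p = 0.0234) was the 1 gene called higher, while ARID4A was at 0.46 (adjusted p = 0.151) and HDAC2 at 0.01 (adjusted p = 0.948). SIN3B turned to 0.07 (adjusted p = 0.537), and the 5 genes called lower were HDAC1, RBBP4 (-0.68, adjusted p = 0.000268), SIN3A, RBBP7 and SAP18. Without DMSO replicate 3 there was 1 in each direction, without DMSO replicate 2 there was 1 rise and without combination replicate 2 there was 1 fall.

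Of the 10 genes of the Polycomb complex that holds MGA, 3 rose and 1 fell, with a median of 0.23. PCGF6, the subunit that defines this complex, was at 20.1 ± 1.3 CPM in the combination and 9.34 ± 1.13 CPM in DMSO (SD, n = 3 each), a log2 fold change of 1.10 ± 0.20 (SE, edgeR adjusted p = 0.000523). E2F6, its DNA-binding repressor, rose by 0.55 ± 0.13 (adjusted p = 0.00306) and CBX3, a reader of methylated histone, by 0.57 ± 0.19 (adjusted p = 0.0221). TFDP1, the dimer partner of E2F6, was at -0.28 ± 0.11 (adjusted p = 0.0488). That call was lost with upper-quartile scaling, with no low-count filter and with the replicate number as a block. It was also lost without any 1 library other than DMSO replicate 1 and TH10785 replicate 3. MGA and PCGF6 were higher in the combination libraries than in those of DMSO. Under the GC and length offsets 3 genes were higher and 3 lower. PCGF6 was then at 0.64 (adjusted p = 0.00184), E2F6 at 0.35 (adjusted p = 0.0161) and CBX3 at -0.06 (adjusted p = 0.691). RING1 joined those that were higher, and CBX1 and RNF2, which was at -0.39 (adjusted p = 0.0323) with the offsets and 0.22 (adjusted p = 0.384) without them, joined TFDP1 as lower. All genes of the list but PCGF6, E2F6 and RING1 had negative log2 fold changes with the offsets, so the list median was then negative.

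Genes for proteins that act on the MYC gene, transcript or protein were mostly lower against DMSO where they passed the test. Of 11 proteins that act on the MYC gene or transcript, 1 rose and 6 fell (median -0.48). CNBP, which binds the MYC promoter, rose by 0.69 ± 0.14 (SE, edgeR adjusted p = 0.00113). KHSRP, a decay factor, fell by 0.81 ± 0.13 on the log2 scale (adjusted p = 0.000223), ELAVL1, a stabilising factor, by 0.73 ± 0.12 (adjusted p = 0.000254), IGF2BP1, which protects the MYC coding region, by 0.91 ± 0.20 (adjusted p = 0.00242), and CTCF, an insulator protein, by 0.51 ± 0.11 (adjusted p = 0.00246). Factors known to stabilise and to destabilise MYC RNA were both among those that fell. Without DMSO replicate 3 or TH10785 replicate 3, 2 rose. Offsets for GC content and length moved CNBP to 0.39 (adjusted p = 0.004) and KHSRP to -0.50 (adjusted p = 0.000804). HNRNPK (-0.56, adjusted p = 0.000523) was then called lower, and PUF60 (-0.12, adjusted p = 0.326) no longer was. In the combination against TH10785, 2 of the 11 rose and 4 fell (22.7% and 19.7% of all genes), and against PNKP1i 3 rose and 4 fell (24.4% and 21.5%).

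Of 19 genes for the turnover of MYC protein, 1 rose and 5 fell (median -0.03). PPP2R5A, a phosphatase subunit that helps MYC be degraded, rose by a log2 fold change of 0.76 ± 0.19 (SE, edgeR adjusted p = 0.00395). USP22, a deubiquitinase, fell by 0.75 ± 0.11 on the log2 scale (adjusted p = 0.000123), AURKA, the kinase that protects MYCN from FBXW7, by 0.50 ± 0.12 (adjusted p = 0.00378), the ligase TRIM32 by 0.50 ± 0.12 (adjusted p = 0.00311) and GSK3B, the kinase that marks MYC for degradation, by 0.34 ± 0.10 (adjusted p = 0.0135). Without TH10785 replicate 3, 5 rose and 8 fell, and without TH10785 replicate 1, 2 rose. The same offsets put GSK3B at -0.68 (adjusted p = 0.00174), and USP36 (0.44, adjusted p = 0.00866) was also called higher. SKP2 (-0.71, adjusted p = 0.00133) was then called lower, and GSK3A (-0.26, adjusted p = 0.0738) no longer was. Against the single agents the list was divided. In the combination 6 rose and 6 fell against TH10785 (22.7% and 19.7% of all genes), and 6 and 6 against PNKP1i (24.4% and 21.5%). In the interaction 6 were above the sum and 4 below it (16.5% and 14.1%).

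Genes that MYC is known to activate went both ways, with more rises than falls against DMSO. Of 60 tested, 20 rose (21.3% of all genes rose), 6 fell (19.7% of all genes fell) and 34 did not pass the test. Against DMSO rises took a larger share of the list than of all genes and falls a smaller one, and the median log2 fold change was 0.09. Those that rose included the nucleolar genes GNL3 (1.24 ± 0.17, SE, edgeR adjusted p = 6.69e-05) and WDR43 (1.33 ± 0.22, adjusted p = 0.0002), the amino acid enzyme BCAT1 (1.16 ± 0.12, adjusted p = 4.21e-06) and the hexokinase HK2 (1.25 ± 0.19, adjusted p = 0.000118). HK2 was at 109.6, 57.8 and 64.6 CPM in the combination and 28.96, 32.0 and 36.5 CPM in DMSO, with replicate 1 highest as for MYC. LDHA, the lactate dehydrogenase that is a classical MYC target, went the other way, at 558.1, 946.4 and 732.4 CPM in the combination and 1601, 1530 and 1400 CPM in DMSO, a log2 fold change of -1.02 ± 0.16 (adjusted p = 0.000141). UNG, a uracil glycosylase, was at -0.52 ± 0.12 (adjusted p = 0.00288), CAD, of pyrimidine synthesis, at -0.42 ± 0.13 (adjusted p = 0.0147) and TCOF1, of ribosomal RNA transcription, at -0.34 ± 0.11 (adjusted p = 0.0213). Without DMSO replicate 2, 13 rose and 2 fell, and 2 fell without DMSO replicate 3 and 3 without combination replicate 3 or with offsets for GC content and length. The offsets took the call from CAD (-0.07, adjusted p = 0.610) and TCOF1 (-0.06, adjusted p = 0.621), and moved GNL3 to 0.73, WDR43 to 0.83 and BCAT1 to 0.58, all 3 still called. In the combination against TH10785, 17 of the 60 rose and 13 fell (22.7% and 19.7% of all genes, list median -0.03). Against PNKP1i 17 rose and 12 fell (24.4% and 21.5%, median 0.03). In the interaction 14 were above the sum and 12 below it (16.5% and 14.1%, median -0.17). Over the alternative fits these falls ran from 5 to 17, 4 to 17 and 5 to 16, in that order.

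Of 12 genes that MYC is known to repress, 2 rose and 6 fell (19.7% of all genes fell), with a median of -0.50. CDKN1C (-0.69 ± 0.15, SE, edgeR adjusted p = 0.00219) and CDKN1B (-0.63 ± 0.16, adjusted p = 0.00434), which hold back the cell cycle, NDRG2 (-0.79 ± 0.19, adjusted p = 0.00409) and THBS1, a matrix protein that limits vessel growth (-0.71 ± 0.18, adjusted p = 0.0043), were lower. GADD45A, a stress gene, was at 164.0, 127.6 and 123.5 CPM in the combination and 58.9, 62.6 and 70.7 CPM in DMSO and rose by 1.11 ± 0.13 (adjusted p = 1.22e-05), and KLF6 rose by 0.54 ± 0.15 (adjusted p = 0.00968). Without combination replicate 1, 1 of the 2 rises was called. CDKN1C was at -0.34 (adjusted p = 0.0484) with offsets for GC content and length. Many of these genes are also targets of other regulators, and the part of MYC in their levels was not tested.

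**Figure D5:**
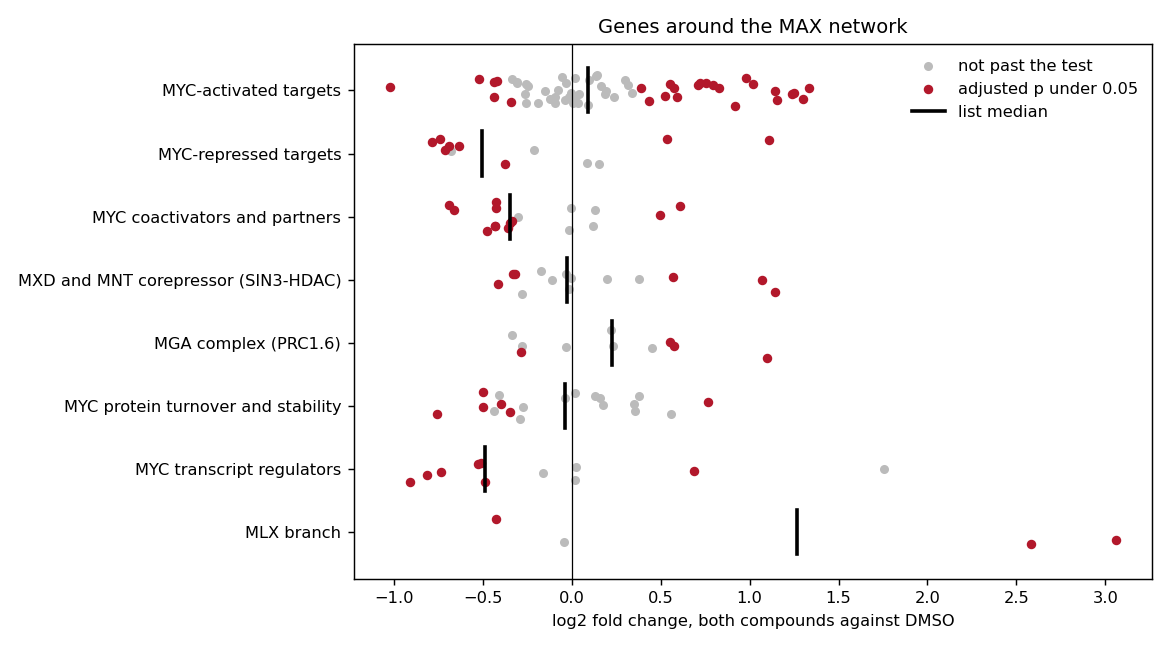
Log2 fold change of both compounds against DMSO (horizontal axis) for each tested gene of 8 lists around the network, red where the adjusted p was under 0.05, with a bar at each list's median. The values carry no offsets for GC content and length. MYC-repressed targets, coactivators and transcript regulators have medians of -0.50, -0.35 and -0.48, and TXNIP and ARRDC4 of the MLX branch lie above 2.5.

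With the single agents almost nothing in these lists passed the test. CASC8 and TMEM97, a sterol-responsive membrane protein counted among the MYC-activated targets (0.88 ± 0.12, SE, edgeR adjusted p = 0.000868), were the list genes called for TH10785 against DMSO (0.561% of all genes), and 0 were called for PNKP1i against DMSO. TH10785 against PNKP1i added TXNIP and SLC29A2, a nucleoside transporter (0.70 ± 0.16, adjusted p = 0.0455), to CASC8 (0.90 ± 0.19, adjusted p = 0.0303) and TMEM97 (0.86 ± 0.12, adjusted p = 0.00116). CASC8 lost this call in 7 of 21 alternatives, among them those without TH10785 replicate 1, any 1 PNKP1i library or DMSO replicate 2. Of the MYC-activated targets 1 was called without TH10785 replicate 2, any 1 PNKP1i library or any 1 DMSO library, and 5 were called without TH10785 replicate 3.

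The protein-coding genes with patterns most like MYC over the 12 libraries, by Pearson's r of log2 CPM, were SLC43A3 (0.984), HERPUD1 (0.977), EEF1AKMT3 (0.974), PLXNA2 (0.972) and RFTN1 (0.972). Over the 9 libraries without the combination, r was 0.840, 0.760, 0.690, 0.653 and 0.740 in the same order. Those most like MYCN were CACNA1G (0.964), CD37 (0.959), PRICKLE2 (0.958), TMEM271 (0.955) and ADGRG1 (0.954), with 0.802, 0.781, 0.800, 0.535 and 0.597 over the 9 libraries. ADGRG1 was at 42.9 CPM in the combination, 94.9 CPM under TH10785, 128.4 CPM under PNKP1i and 141.7 CPM in DMSO on average, the order of MYCN. These values describe likeness among libraries that share treatment, depth and base composition, and they carry no test.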

How the data were processed

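RNA of U2OS cells was measured in 12 libraries of 4 groups. The authors deposited raw read counts per gene. Per the submitters' processing notes, the tools were DESeq2 1.30.1, HTSeq 0.6.1 and HISAT2 2.0.5 on GRCh38 (hg38). The annotation and strand setting are not given in the sources used here. A second deposited table holds the same counts scaled by 1 factor per library and was not used.

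Counts were tested here with edgeR 4.0.16 in R 4.3.3 (limma 3.58.1). Genes were kept with filterByExpr (minimum count 10, minimum total 15), which left 17290, all 10 network genes among them. Libraries were scaled by TMM, 1 mean per group was fitted over the 12 libraries by quasi-likelihood, with two-sided tests. Benjamini-Hochberg adjustment ran over all tested genes of a comparison, and calls used an adjusted p under 0.05. The biological coefficient of variation was 15.4%. No replicates were duplicates, since the chi-square per gene between them was 3.04 to 37.1. In these libraries 3 reads correspond to 0.136 to 0.184 CPM. Levels are mean ± SD, and differences are log2 fold changes ± SE.

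Positions, overlaps, exon length and GC content come from GENCODE on GRCh38, with GC content and length for 17282 tested genes. Promoter sequences come from RefSeq tables.

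The members and the 11 gene lists around them were chosen with earlier results of these data known. Members are named in every comparison. From lists of up to 6 genes every member is named, from longer ones up to 4 per direction with the smallest p. Of the short lists, CCAT1, MAX-AS1 and MXD3P1 were not in the count table, and MYCL-AS1 was too low to test. The paired CACGAG motif, the overlapping genes of MXD3 and repeat values of single libraries fall outside this rule and were chosen after values were seen.

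Other settings were scaling by upper quartile or RLE, DESeq2 1.42.0, no filter beyond 1 count, a filter of CPM 1 in 3 libraries, a fit of only the groups compared, the replicate number as a block, spline offsets for transcript length and GC content, and each library left out in turn. Leaving out TH10785 replicate 3 and combination replicate 1 together was added after seeing the data. The fit was checked on simulated data before use. The level of 1 neuroblast marker is not reported here.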

Additional observations from a re-analysis of the deposited data

Results flagged for a closer look

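Of the 8 network genes that could be tested, 5 had a response to the combination that differed from the sum of the single-agent responses, by the test of that difference (edgeR's quasi-likelihood test of the interaction). MXD1 stood above the sum by 2.79 on the log2 scale and MGA by 1.48. MYCL was at -0.86, MXD3 at -1.28 and MXD4 at -0.55. MXD4 lost its call in 9 of 20 alternatives and MXD3 in 2, while the other 3 genes were called in all 20. With offsets for GC content and length MGA was at 0.75, MXD3 at -0.82 and MXD4 at -0.27, of which MGA alone was called. Over all tested genes 30.6% were called in the same test.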

How the results depend on the processing

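Of the single-agent values near 0, several changed sign. For TH10785 against DMSO, MAX was at 0.0018 with RLE scaling, 0.0018 with DESeq2, 0.0196 with no filter and 0.0074 with only the groups compared, and MYC at -0.0066 with GC and length offsets. Without TH10785 replicate 3 and combination replicate 1, MYC was at -0.014, MXD1 at 0.083 and MGA at 0.075. For PNKP1i against DMSO, the offsets gave MYC -0.067 and MAX -0.043, and with only the groups compared 1 gene, MGA, was called (-0.46, adjusted p = 0.0399). For TH10785 against PNKP1i, MAX was at 0.032 with the offsets, and without those 2 libraries MYC was at -0.062, MXI1 at 0.091 and MNT at -0.08. In that fit MAX for TH10785 against DMSO, at -0.0646, and MGA for TH10785 against PNKP1i, at 0.546, did not change sign but moved away from 0. MNT also reversed with the offsets, at 0.19 for the combination against TH10785, 0.26 against PNKP1i and 0.12 against DMSO, and in the interaction at -0.0065 with RLE scaling, -0.0062 with DESeq2 and -0.0036 with no filter. MYC was at 0.72 for the combination against PNKP1i and 0.76 against DMSO without the 2 libraries, and at 1.32 in the interaction with the offsets. The cause was not tested.

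Leaving out 1 library at a time gave these ranges. For TH10785 against DMSO they were -0.027 to 0.16 for MYC, -0.052 to 0.065 for MAX, -0.298 to 0.095 for MXD1, -0.22 to 0.044 for MXD3, -0.27 to 0.019 for MNT and -0.48 to 0.088 for MGA. For PNKP1i against DMSO they were -0.041 to 0.17 for MYC, -0.038 to 0.058 for MAX, -0.097 to 0.12 for MXD4 and -0.27 to 0.016 for MNT. For TH10785 against PNKP1i they were -0.11 to 0.11 for MYC, -0.073 to 0.045 for MAX, -0.16 to 0.087 for MXI1, -0.084 to 0.081 for MNT and -0.025 to 0.54 for MGA. MYC ran from 0.701 to 1.21 for the combination against TH10785, 0.72 to 1.23 against PNKP1i, 0.77 to 1.28 against DMSO and 0.65 to 1.16 in the interaction, lowest without combination replicate 1. MYCN ran from -3.61 to -2.38, -4.13 to -2.9, -4.34 to -3.11 and -3.4 to -2.17 in the same order. MNT ran from -0.16 to 0.13 in the interaction, where 3 to 6 of the 8 tested genes were called, and 3 were called without TH10785 replicate 3, when MXD3 (adjusted p = 0.0518) and MXD4 (adjusted p = 0.0543) missed the threshold.

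Replicate numbers did not pair the libraries, since same-numbered libraries deviated together with r from -0.255 to 0.125. With the replicate block MXD4 missed the threshold in the interaction (-0.55, adjusted p = 0.0577) and MNT for TH10785 against PNKP1i was at -0.0026, and MYC was at 1.084 and MYCN at -3.43 for the combination against DMSO. No scaling moved the median of all genes by over 0.1. Counts limit MYCN in the combination, at 3, 3 and 12 reads.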
